A study of Mus musculus with 37 samples.

Results

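Voltage-gated sodium and calcium channels open when the membrane of a neuron is depolarised. Each channel is built around 1 large alpha subunit, which forms the pore and senses voltage, and smaller accessory subunits that set its amount at the membrane, its gating and its place in the cell. In the cerebellum, sodium channels carry the spikes of Purkinje cells and granule neurons, and P/Q-type calcium channels drive transmitter release and the firing of Purkinje cells. The genes described here were taken by symbol from a table of RNA levels in mouse cerebellum, as every symbol of the form Scn followed by a number and a or b, or starting with Cacna, Cacnb or Cacng. That gave 40 of 29955 gene symbols. There were 10 sodium alpha genes, 4 sodium beta genes, 10 calcium alpha-1 genes, 4 alpha-2-delta genes, 4 calcium beta genes and 8 gamma genes, so that 20 encode alpha subunits and 20 encode accessory subunits.

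The RNA came from C57BL/6 mice. KO mice (Mll4 BSKO, a brain-specific knockout) were compared with WT mice (Mll4f/f), which carry the floxed alleles without the deletion, so both genotypes share the floxed background. Mll4 encodes an enzyme that methylates lysine 4 of histone H3 at enhancers. There were 1 KO and 1 WT library at 4 months, and 3 KO and 3 WT libraries at 1 month. The Cre driver is not given in the sources used here, and neither is the number of animals behind each library. The p-values therefore describe the spread between libraries alone, and part of that spread can be technical. Values are FPKM, fragments scaled to transcript length and sequencing yield, as deposited. The remaining 29 of the 37 samples of the series, chromatin immunoprecipitation and its inputs, were not analysed here.

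Several libraries stood apart or went against their labels. The targeted gene is listed as Mll2, an older name read here as Kmt2d, and had 12.7, 13.6 and 23.5 FPKM in KO replicates 1, 2 and 3, against 18.2, 19.9 and 22.3 FPKM in WT libraries at 1 month. At 4 months it had 16.6 FPKM in the library labelled KO, against 46.6 FPKM in the WT library. The library labelled KO replicate 3 at 1 month was therefore not low for this gene. Over 7315 genes its median absolute log2 difference was 0.25 from each of KO replicates 1 and 2. From WT replicates 1, 2 and 3 it was 0.16, 0.15 and 0.20. The 12 granule neuron markers summed to 327, 319.8 and 1096 FPKM in the KO libraries at 1 month, against 1692, 1648 and 1620.3 FPKM in WT. The 12 Purkinje cell markers in the table summed to 594, 524 and 1505 FPKM in KO, against 2668, 2468 and 2204 FPKM in WT. The 13 brainstem markers summed to 169.9, 174 and 104 FPKM in KO, against 16.4, 17.6 and 58.2 FPKM in WT, where WT replicate 3 was the high one. The 9 oligodendrocyte markers summed to 4204 to 7116 FPKM in KO, against 3121 to 6191 FPKM in WT. The 8 microglia markers summed to 139.8 to 177 FPKM in KO, highest in KO replicate 3, against 52.6 to 69.0 FPKM in WT. The 4 meninges markers summed to 55.0 to 61.1 FPKM in KO, against 22.8 to 27.1 FPKM in WT, with 4 of 4 positive. The 8 astrocyte and Bergmann glia markers summed to 938 to 1127 FPKM in KO, against 978 to 994 FPKM in WT. Of these 8, 4 had positive and 4 negative log2 fold changes. Gfap (1.19, limma adjusted p = 0.0670) was higher at an adjusted p under 0.1, and 3 were lower. The 3 were Gdf10 (-2.10) and Slc1a3 (-1.32), each at a limma adjusted p of 0.0680, and Hopx (-0.92, adjusted p = 0.0623). The 5 inhibitory neuron markers summed to 381 to 495 FPKM in KO, against 497 to 655 FPKM in WT, but 3 of 5 had positive fold changes. At an adjusted p under 0.1 (limma), 1 was higher, Sst (1.08), and 2 were lower, Gad1 (-0.70) and Pvalb (-0.88). The library labelled 4-month KO went against its tissue label. Its granule neuron markers summed to 55.0 FPKM, against 1061 FPKM in the 4-month WT library. Its Purkinje cell markers summed to 450 FPKM, against 1434 FPKM in the 4-month WT library. Single markers varied. Gabra6, of granule neurons, had 0.12 FPKM in the library labelled 4-month KO, against 134 FPKM in the 4-month WT library. Of the Purkinje cell genes, Pcp2 had 0.54 FPKM there, against 132 FPKM in the 4-month WT library. Pcp4 was not low, with 192 FPKM, against 222 FPKM in the 4-month WT library. The forebrain gene Camk2a had 385 FPKM in the library labelled 4-month KO, against 16.1 FPKM in the 4-month WT library. Neurod6 had 33.2 FPKM, against 1.597 FPKM in the 4-month WT library. The forebrain genes were chosen after their values were seen. Channel genes past a threshold at 1 month are given with and without KO replicate 3. Those past it with age are given with and without the 4-month KO library. KO replicate 3 was singled out after these data were seen, because it lay close to WT. Leaving out a library for that reason tends to widen the differences and to narrow the KO spread. The p-values without KO replicate 3 are therefore descriptive and no separate support for a call. The counts of the marker lists, and of the partner lists other than potassium channels, are given with all 6 libraries of 1 month only. In bulk tissue, fewer cells of a type and less RNA per cell cannot be told apart. The part of cell makeup in the channel values below was not tested.

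At 1 month, 3 pore-forming calcium channel genes were lower in KO cerebellum at an adjusted p under 0.1, the P/Q-type gene Cacna1a, the T-type gene Cacna1g and the R-type gene Cacna1e. The sodium channel genes Scn1a, Scn3a and Scn4b were higher at that threshold. Of the accessory calcium channel genes, Cacna2d1, Cacna2d2, Cacnb4 and Cacng5 were lower and Cacnb1, Cacng4 and Cacng8 were higher. Of the 40 genes, 31 reached a mean of 1 FPKM over the 6 libraries and were tested, of which 13 encode alpha and 18 accessory subunits. With all 6 libraries, 0 of the 31 passed an adjusted p of 0.05 in limma (Benjamini-Hochberg over all 14847 genes tested), where 0.0606% of all genes did. At an unadjusted p under 0.05 there were 16 of 31, against 31.8% of all genes. At an adjusted p under 0.1, 13 of 31 passed, against 18.4% of all genes. Of these, 6 were higher in KO, against 8.59% of all genes, and 7 were lower, against 9.77%. In 12 of these 13 genes KO replicate 3 was the KO library closest to the WT mean, with Cacng4 as the exception. The number of calls at 0.1 depended on single libraries, for channel genes and for all genes alike. Without KO replicate 1, KO replicate 2, WT replicate 1 or WT replicate 2, 0 channel genes passed. Over all genes it was 0.0472%, 0.0405%, 0.00672% and 0.0336% in these fits. It was 9 of 32 channel genes without WT replicate 3 (4.59% of all genes). It was 22 of 31 without KO replicate 3 (46% of all genes). Without KO replicate 3, 17 of 31 passed an adjusted p of 0.05, against 34.8% of all genes tested. Of these, 5 rose in KO (14.6% of all genes) and 12 fell (20.2% of all genes). In a fit over all 8 libraries with age as a term, which takes in the library labelled 4-month KO, 6 of the 13 genes stayed under an adjusted p of 0.1. The other 7 did not, namely Scn1a (log2 fold change 0.32, limma adjusted p = 0.255), Scn4b (0.25, 0.780), Cacna1e (-0.54, 0.463), Cacna2d1 (-0.19, 0.758), Cacna2d2 (-0.86, 0.116), Cacnb4 (-0.56, 0.119) and Cacng4 (-0.11, 0.890).

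The calls fell on both alpha and accessory genes. At an adjusted p under 0.1, 5 of 13 alpha genes and 8 of 18 accessory genes passed, and without KO replicate 3 at 0.05 it was 8 of 13 and 9 of 18. The KO and WT libraries did not overlap in 16 of 31 genes, against 35.8% of all genes. KO lay above WT in 7 of them (15.2% of all genes) and below WT in 9 (20.5% of all genes). The median log2 fold change was -0.28 over the 13 alpha genes and 0.01 over the 18 accessory genes, beside -0.04 over all genes tested. The 5 sodium alpha genes tested had a median of 0.68, with 5 of 5 positive, beside 44.8% positive over all genes tested. These 5 include Scn2a (1.21), the minor row of a gene that the table splits, while its major row Scn2a1, outside the symbols chosen, had -1.13. With Scn2a1 in place of Scn2a the median was 0.49, with 4 of 5 positive. The 8 calcium alpha-1 genes tested had a median of -0.64, with 7 of 8 negative.

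**Figure D1:**
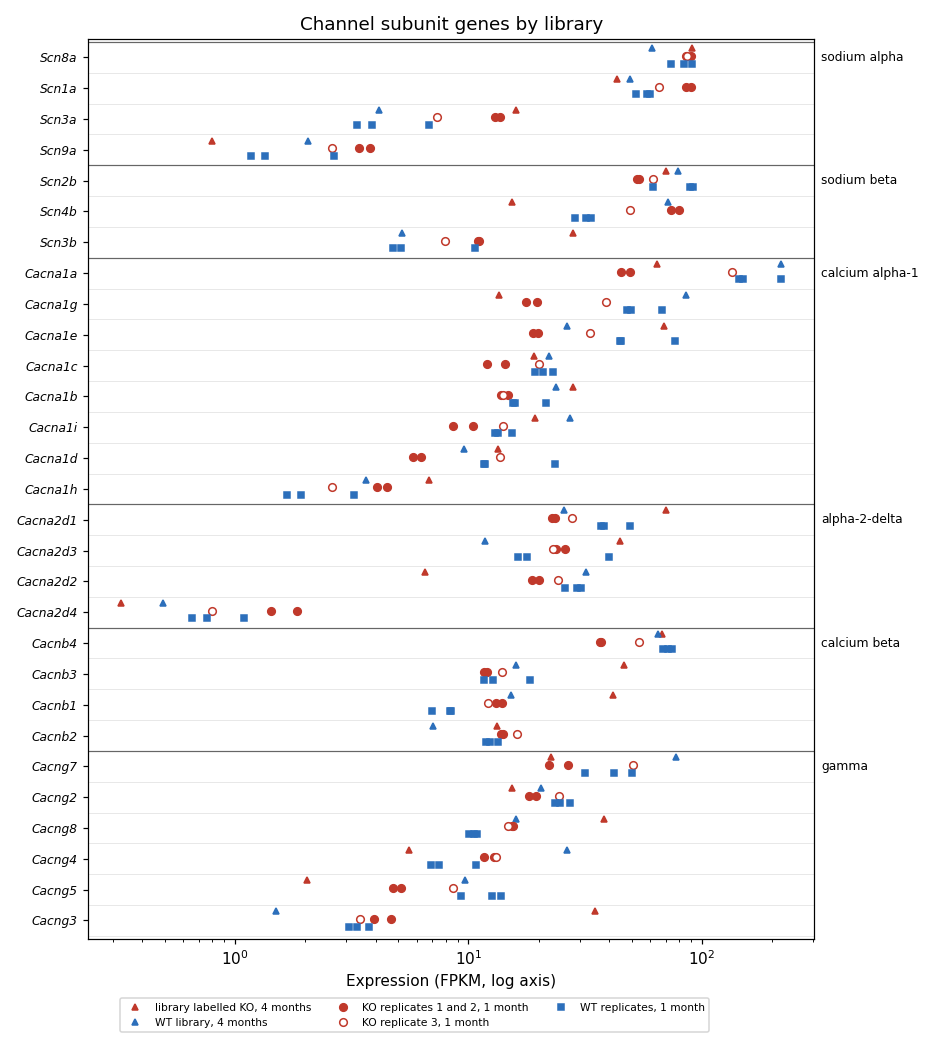
Expression of channel genes that were tested at 1 month, by library and subunit class (horizontal log axis, FPKM). Triangles are the 4-month libraries, circles the 1-month KO libraries with KO replicate 3 open, and squares the 1-month WT libraries. Not every gene is drawn, and Scn2a, listed at 0 in some libraries, is left out. In Cacna1a the open circle (135 FPKM) sits next to the WT squares, while KO replicates 1 and 2 are at 44.9 and 49.2 FPKM.

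Among the sodium alpha genes chosen by symbol, Scn8a and Scn1a averaged 82.8 and 56.6 FPKM in WT libraries at 1 month, beside 87.9 FPKM for Scn2a1, described further on. Scn1a encodes Nav1.1, a channel of inhibitory neurons and Purkinje cells. It had 85.5, 89.9 and 65.7 FPKM in KO libraries, against 59.7, 58.1 and 52.1 FPKM in WT libraries. The groups did not overlap, and KO replicate 3 was the lowest of the KO libraries. The log2 fold change was 0.49 ± 0.14 (SE, limma adjusted p = 0.0839), and 0.62 ± 0.09 without KO replicate 3 (adjusted p = 0.00471). Scn8a, which encodes Nav1.6, the channel of the axon initial segment and nodes, had 90.1, 85.4 and 86.1 FPKM in KO, against 91.0, 83.5 and 74.0 FPKM in WT. The groups overlapped and the log2 fold change was 0.08 ± 0.11 (SE, limma adjusted p = 0.647).

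Scn3a encodes Nav1.3, a channel best known from the embryonic and newborn brain. It had 13.0, 13.7 and 7.30 FPKM in KO libraries, against 3.86, 3.31 and 6.75 FPKM in WT libraries. The groups did not overlap, but KO replicate 3 and WT replicate 3 lay close together. Its log2 fold change was 1.13 ± 0.29 (SE, limma adjusted p = 0.0753), and 1.39 ± 0.25 without KO replicate 3 (adjusted p = 0.0105). Scn9a (Nav1.7, known from sensory neurons) averaged 3.27 ± 0.617 FPKM in KO and 1.72 ± 0.810 FPKM in WT (SD, n = 3 each). Its groups overlapped and it missed both thresholds with all 6 libraries (limma adjusted p = 0.110). Without KO replicate 3 it passed 0.1 but not 0.05 (limma adjusted p = 0.0529). The brainstem marker sum was high in the same KO libraries as Scn3a, and its part was not tested.

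The gene for Nav1.2, the main sodium channel of unmyelinated axons, is split over 2 symbols in the table. The symbol Scn2a was listed at 0 in WT replicates 1 and 3 and in both 4-month libraries. It had 3.02, 3.92 and 2.41 FPKM in the KO libraries at 1 month, and 4.48 FPKM in WT replicate 2. Its log2 fold change was 1.21 ± 0.64 (SE, limma adjusted p = 0.237). Most of the signal sat under Scn2a1, an older symbol of the same gene, which the choice of symbols does not match. Scn2a1 had 33.4, 33.1 and 55.5 FPKM in KO libraries, against 90.9, 86.2 and 86.7 FPKM in WT libraries. The WT libraries were tight and every KO library lay below them. The log2 fold change of Scn2a1 was -1.13 ± 0.20 (SE, limma adjusted p = 0.0596), and -1.38 ± 0.07 without KO replicate 3 (adjusted p = 0.000228), opposite in sign to Scn1a and Scn3a. How the authors divided fragments between the 2 symbols, and among near-identical stretches of Scn1a, Scn2a and Scn3a, is not given in the sources used here.

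With Scn2a1 included, the summed FPKM of the sodium alpha genes was 231, 232 and 221 in KO libraries, against 247, 239 and 223 in WT libraries at 1 month. The sums lay close together while their makeup differed. Scn2a1 made up 14.5%, 14.3% and 25.1% of the sum in KO, against 36.8%, 36.1% and 38.8% in WT. Scn1a made up 37.0%, 38.8% and 29.8% in KO, against 24.1%, 24.3% and 23.3% in WT. For Scn8a the shares were 39.0%, 36.8% and 39.0% in KO, against 36.8%, 34.9% and 33.2% in WT.

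**Figure D2:**
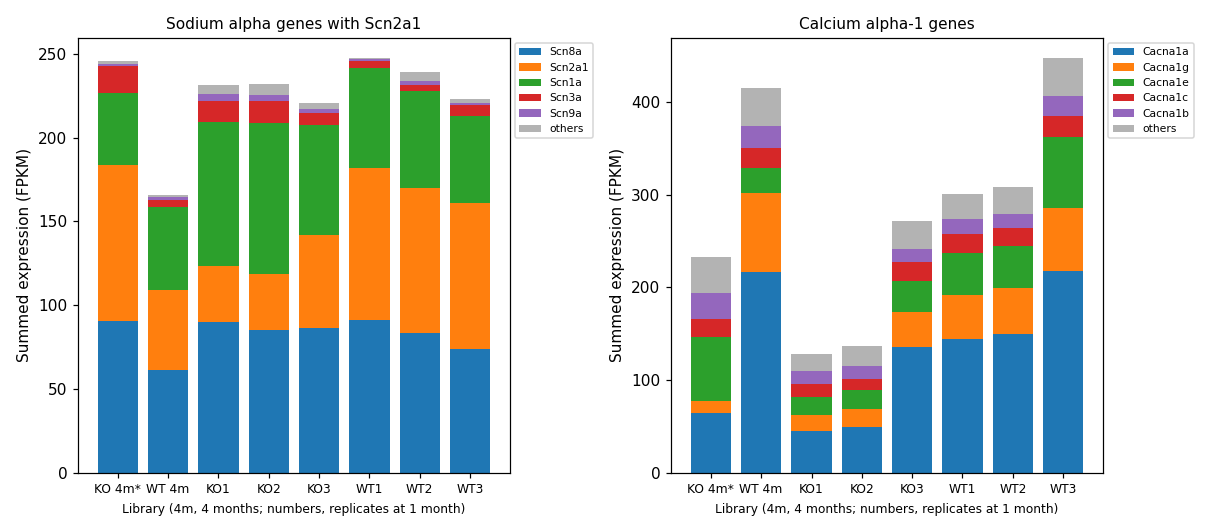
Summed FPKM of the sodium alpha genes with Scn2a1 (left) and of the calcium alpha-1 genes (right), stacked by gene, for each library. KO 4m* is the library labelled 4-month KO. At 1 month the sodium sums run from 221 to 247 FPKM, while the calcium sums are 128 and 137 FPKM in KO replicates 1 and 2, against 300.4 to 447 FPKM in WT.

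Sodium beta subunits are single-pass membrane proteins that bind the alpha subunit and adhere to neighbouring cells. Scn4b, whose product is linked to the resurgent sodium current of Purkinje cells, had 73.5, 79.9 and 49.4 FPKM in KO libraries, against 33.6, 31.9 and 28.5 FPKM in WT libraries. Every KO library lay above every WT library. On the log2 scale, KO differed from WT by 1.06 ± 0.19 (SE, limma adjusted p = 0.0596), and 1.27 ± 0.10 without KO replicate 3 (adjusted p = 0.00069). The fit over all 8 libraries with age gave 0.25 (limma adjusted p = 0.780). The Purkinje cell markers were lower in the same KO libraries, with 12 of 12 tested negative and 10 of 12 at an adjusted p under 0.1. Scn2b had 52.9, 53.9 and 61.7 FPKM in KO libraries, against 91.5, 88.9 and 61.8 FPKM in WT libraries. The groups were separated by 1 close pair, KO replicate 3 and WT replicate 3. The log2 fold change of Scn2b was -0.50 ± 0.17 (SE, limma adjusted p = 0.105), and -0.57 ± 0.18 without KO replicate 3 (adjusted p = 0.0542, past 0.1 but not 0.05).

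Scn3b averaged 9.99 ± 1.78 FPKM in KO and 6.84 ± 3.29 FPKM in WT (SD, n = 3 each), where WT replicate 3 (10.6 FPKM) lay among the KO libraries. It did not pass either threshold (limma adjusted p = 0.223).

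Calcium alpha-1 genes form the pores of the high-voltage L, P/Q, N and R types and of the low-voltage T type. Cacna1a encodes Cav2.1, the P/Q-type pore that carries most calcium current of Purkinje cells. It had 44.9, 49.2 and 135 FPKM in KO libraries, against 144, 150.2 and 218 FPKM in WT libraries. KO replicate 3 lay just under the WT libraries and WT replicate 3 above the other WT libraries. Expressed on the log2 scale, the change was -1.31 ± 0.41 (SE, limma adjusted p = 0.0951), and -1.81 ± 0.19 without KO replicate 3 (adjusted p = 0.00183).

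Cacna1g encodes Cav3.1, a T-type pore of Purkinje cells and deep nuclei. It had 17.6, 19.6 and 38.7 FPKM in KO libraries, against 47.5, 49.5 and 67.7 FPKM in WT libraries. The groups did not overlap. Its log2 fold change was -1.15 ± 0.30 (SE, limma adjusted p = 0.0748), and -1.49 ± 0.16 without KO replicate 3 (adjusted p = 0.00218). Cacna1e, the R-type pore Cav2.3, had 19.0, 19.9 and 33.1 FPKM in KO libraries, against 44.98, 44.8 and 76.8 FPKM in WT libraries. The groups did not overlap either, and the log2 fold change was -1.17 ± 0.28 (SE, limma adjusted p = 0.0698), or -1.42 ± 0.24 without KO replicate 3 (adjusted p = 0.00855).

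The L-type and N-type pores missed both thresholds with all 6 libraries. Cacna1d, the L-type pore Cav1.3, had 5.80, 6.29 and 13.6 FPKM in KO libraries, against 11.8, 11.7 and 23.5 FPKM in WT libraries. KO replicate 3 lay inside the WT range. On the log2 scale, KO differed from WT by -0.82 ± 0.37 (SE, limma adjusted p = 0.174), and -1.17 ± 0.30 without KO replicate 3 (adjusted p = 0.0304). Cacna1c, the L-type pore Cav1.2, averaged 15.5 ± 4.16 FPKM in KO and 21.1 ± 1.92 FPKM in WT (SD, n = 3 each), and passed without KO replicate 3 (limma log2 fold change -0.64, adjusted p = 0.00993). Cacna1b, the N-type pore Cav2.2, averaged 14.2 ± 0.468 FPKM in KO and 17.7 ± 3.39 FPKM in WT (SD, n = 3 each), with groups that did not overlap and a limma adjusted p of 0.206.

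The other T-type genes had fold changes of opposite sign. Cacna1i (Cav3.3) had 8.57, 10.5 and 14.1 FPKM in KO libraries, against 13.3, 15.3 and 13.0 FPKM in WT libraries. It overlapped between groups and passed without KO replicate 3 (limma log2 fold change -0.51 ± 0.12, SE, adjusted p = 0.0250). Cacna1h (Cav3.2) was the 1 positive gene of the 8, with 4.07, 4.497 and 2.61 FPKM in KO libraries, against 1.67, 1.91 and 3.23 FPKM in WT libraries. It overlapped between groups (limma log2 fold change 0.54 ± 0.24, SE, adjusted p = 0.170, and 0.0503 without KO replicate 3).

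Summed over the 10 calcium alpha-1 genes, the libraries had 128, 137 and 272 FPKM in KO, against 300.4, 309 and 447 FPKM in WT. Cacna1a made up 35.0%, 36.0% and 49.8% of these sums in KO, against 48.1%, 48.7% and 48.8% in WT. The median log2 difference from the WT mean over the 8 genes tested was -0.93, -0.94 and -0.21 in the KO libraries, against -0.20, -0.14 and 0.34 in the WT libraries. Over the 5 sodium alpha genes the same median was 0.86, 0.73 and 0.44 in KO, against -0.17, 0.04 and -0.16 in WT. These 5 hold the minor row Scn2a, listed at 0 in WT replicates 1 and 3, and not Scn2a1 (log2 fold change -1.13). The granule neuron and Purkinje cell marker sums ordered the libraries in the same way as the calcium medians for KO replicates 1 and 2 against the rest. Their part was not tested.

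**Figure D3:**
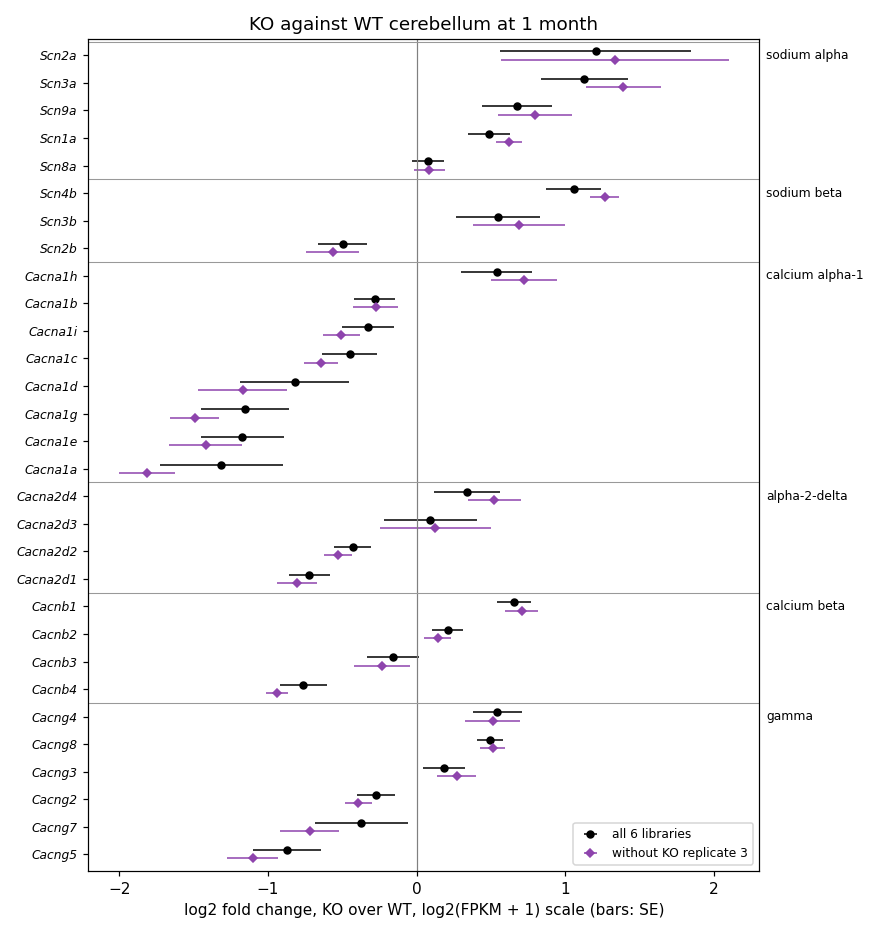
Log2 fold change of KO over WT at 1 month for the genes described, by subunit class, on the log2(FPKM + 1) scale, with all 6 libraries (black circles) and without KO replicate 3 (purple diamonds). Horizontal bars are standard errors from limma. The sodium alpha genes drawn lie right of 0 (Scn2a1, at -1.13, is not drawn) and 7 of 8 calcium alpha-1 genes lie left of it, with Cacna1a at -1.31 and, without KO replicate 3, at -1.81.

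The alpha-2-delta subunits are extracellular proteins that carry calcium channels to the membrane, and some of them bind gabapentin. Cacna2d1 had 23.4, 22.8 and 27.7 FPKM in KO libraries, against 38.03, 37.1 and 49.2 FPKM in WT libraries. The groups did not overlap (log2 fold change -0.72 ± 0.14, SE, limma adjusted p = 0.0596, and -0.80 ± 0.13 without KO replicate 3, adjusted p = 0.00797). Cacna2d2, the subunit lost in the ataxic ducky mouse, averaged 21.0 ± 2.77 FPKM in KO and 28.5 ± 2.29 FPKM in WT (SD, n = 3 each). The limma fit put the log2 fold change at -0.43 ± 0.12 (SE, adjusted p = 0.0819), and -0.53 ± 0.09 without KO replicate 3 (adjusted p = 0.00965).

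Cacna2d3 had 23.7, 26.0 and 23.0 FPKM in KO libraries, against 17.7, 16.2 and 39.8 FPKM in WT libraries. WT replicate 3 alone lay above the KO libraries, and the fold change was 0.09 ± 0.31 on the log2 scale (SE, limma adjusted p = 0.860). Cacna2d4, best known from the retina, had 1.42, 1.84 and 0.794 FPKM in KO libraries, against 0.756, 0.653 and 1.09 FPKM in WT libraries. It was close to the limit of testing and overlapped between groups (limma adjusted p = 0.319). The retina and pineal markers summed to at most 2.09 FPKM in any library, and Crx was listed at 0 in all 8.

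The calcium beta subunits bind the alpha-1 pore inside the cell. Cacnb4, the subunit mutated in the lethargic mouse, had 36.8, 36.8 and 53.6 FPKM in KO libraries, against 74.8, 71.6 and 68.4 FPKM in WT libraries. Every KO library lay below every WT library. Its log2 fold change was -0.76 ± 0.16 (SE, limma adjusted p = 0.0640), and -0.94 ± 0.07 without KO replicate 3 (adjusted p = 0.000776). Cacnb1 went the other way, with 13.1, 14.0 and 12.1 FPKM in KO libraries, against 8.45, 8.30 and 6.96 FPKM in WT libraries. KO replicate 3 stood with the other KO libraries here. On the log2 scale, KO differed from WT by 0.66 ± 0.11 (SE, limma adjusted p = 0.0596), and 0.71 ± 0.11 without KO replicate 3 (adjusted p = 0.00682).

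Cacnb1 is the beta subunit of skeletal muscle and is also made in brain. The 9 skeletal muscle markers summed to between 1.89 and 6.61 FPKM in the 8 libraries, and 8 of the 9 were under 1 FPKM in every library. Cacnb3 had 11.96, 11.6 and 13.9 FPKM in KO libraries, against 12.8, 11.7 and 18.4 FPKM in WT libraries, with overlapping groups (log2 fold change -0.16 ± 0.17, SE, limma adjusted p = 0.563). Cacnb2 averaged 14.7 ± 1.304 FPKM in KO and 12.5 ± 0.798 FPKM in WT (SD, n = 3 each), and its groups did not overlap (limma adjusted p = 0.213). A second row, spelled CacnB2 and outside the choice of symbols, averaged 3.23 ± 0.304 FPKM in KO and 2.64 ± 0.409 FPKM in WT (SD, n = 3 each).

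Cacnb4 made up 48.5%, 48.3% and 56.0% of the summed FPKM of the 4 calcium beta genes in KO, against 68.3%, 68.9% and 64.7% in WT. Cacnb1 made up 17.2%, 18.3% and 12.6% in KO, against 7.73%, 7.98% and 6.59% in WT. The summed FPKM of the class was 75.8, 76.2 and 95.8 in KO, against 109, 104 and 106 in WT.

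The gamma subunits include Cacng1, the skeletal muscle subunit, and a group that mainly serves AMPA-type glutamate receptors and is known as TARPs. Cacng2 encodes stargazin, which brings AMPA receptors to granule neuron synapses. It had 19.5, 18.2 and 24.5 FPKM in KO libraries, against 23.4, 24.6 and 27.2 FPKM in WT libraries. KO replicate 3 lay inside the WT range, and the gene passed without it (limma log2 fold change -0.39 ± 0.09, SE, adjusted p = 0.0230), against an adjusted p of 0.198 with all 6 libraries. Cacng5 had 4.74, 5.13 and 8.59 FPKM in KO libraries, against 13.8, 12.6 and 9.29 FPKM in WT libraries. The groups did not overlap, with KO replicate 3 and WT replicate 3 as the nearest pair. The log2 fold change was -0.87 ± 0.23 (SE, limma adjusted p = 0.0762), and -1.10 ± 0.17 without KO replicate 3 (adjusted p = 0.00639).

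Cacng7 was the most abundant gamma gene, with 22.0, 26.7 and 50.8 FPKM in KO libraries, against 41.9, 50.2 and 31.6 FPKM in WT libraries. KO replicate 3 was the highest of all 6, so the groups overlapped. Its log2 fold change was -0.37 ± 0.31 (SE, limma adjusted p = 0.438), and -0.72 ± 0.20 without KO replicate 3 (adjusted p = 0.0376). Cacng8 had 15.4, 15.4 and 14.8 FPKM in KO libraries, against 10.04, 10.9 and 10.6 FPKM in WT libraries. Both groups were tight and did not overlap. On the log2 scale, KO differed from WT by 0.49 ± 0.09 (SE, limma adjusted p = 0.0596), and 0.51 ± 0.08 without KO replicate 3 (adjusted p = 0.00725).

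Cacng4 had 12.9, 11.6 and 13.1 FPKM in KO libraries, against 7.49, 6.93 and 10.8 FPKM in WT libraries. WT replicate 3 was the WT library nearest to KO, and the groups did not overlap. Expressed on the log2 scale, the change was 0.54 ± 0.16 (SE, limma adjusted p = 0.0902), and 0.51 ± 0.19 without KO replicate 3 (adjusted p = 0.0807). A fit over all 8 libraries with age as a term gave -0.11, the opposite sign. The 6 markers of oligodendrocyte precursors, cells that also express Cacng4, summed to 133, 145 and 94.3 FPKM in KO libraries, against 65.5, 70.4 and 128 FPKM in WT libraries, with 2 of 6 higher at an adjusted p under 0.1. Their part was not tested. Cacng3 averaged 4.01 ± 0.620 FPKM in KO and 3.38 ± 0.330 FPKM in WT (SD, n = 3 each) and passed neither threshold (limma adjusted p = 0.391).

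Of the 40 genes, 9 were under a mean of 1 FPKM at 1 month, most of them known mainly from other tissues. Scn4a, Cacna1s and Cacng1, of skeletal muscle, had at most 0.0562, 0.101 and 0.116 FPKM in any library. Scn10a, of sensory ganglia, had at most 0.140 FPKM, and Cacna1f, of the retina, at most 0.215 FPKM. Scn11a had 1.34 FPKM in WT replicate 3 at 1 month and at most 0.109 FPKM in the other 7 libraries. Cacng6 was listed at 0 in 6 of 8 libraries. Scn7a, a sodium-sensing channel of glia and circumventricular organs, had 1.701, 1.82 and 0.894 FPKM in KO libraries, against 0.319, 0.417 and 0.672 FPKM in WT libraries at 1 month. It was not tested at 1 month because of its low mean, and the groups did not overlap.

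Many of these genes lie beside each other on a chromosome, as the RefSeq annotation of build GRCm38.p6 gives their order. Described first are 4 places where neighbours had fold changes of opposite sign. Over all genes tested 44.8% were positive, and how often neighbours elsewhere differ in sign was not counted. On chromosome 9, Scn2b and Scn4b are adjacent, with no protein-coding gene between them, and had log2 fold changes of -0.50 and 1.06. On chromosome 2 the order is Scn3a, Scn2a, Scn1a, Scn9a and Scn7a, with 3 other protein-coding genes between Scn2a and Scn1a. Scn3a, Scn1a and Scn9a had positive fold changes (1.13, 0.49 and 0.68), and so did the minor row Scn2a (1.21). The opposite sign there rests on Scn2a1 alone (-1.13). On chromosome 11, Cacng4 had 0.54 and its neighbour Cacng5 had -0.87. On chromosome 7, Cacng8 had 0.49 and its neighbour Cacng7 had -0.37, where Cacng7 missed both thresholds (limma adjusted p = 0.438). Signs also differed between Cacna1c (-0.45) and Cacna2d4 (0.34) on chromosome 6, with 1 protein-coding gene between them. On chromosome 14, Cacna2d3 had 0.09 and Cacna1d had -0.82, with 5 protein-coding genes between them. Neighbouring genes that overlap could share fragments, and the strand setting of the counting is not given in the sources used here.

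**Figure D4:**
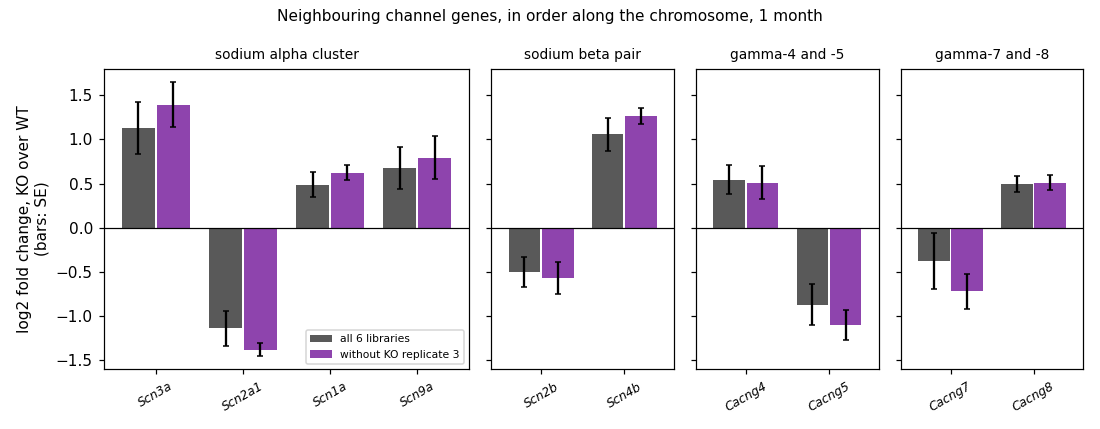
Log2 fold change of KO over WT at 1 month (vertical axis, log2(FPKM + 1) scale, bars with standard errors from limma) for channel genes that are neighbours, in chromosome order, with all 6 libraries (grey) and without KO replicate 3 (purple). Scn2a1 stands at the place of Scn2a, and other genes lie between it and Scn1a. In each of the 4 panels neighbours lie on both sides of 0, as Scn2b (-0.50) and Scn4b (1.06) do.

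RefSeq promoter sequences (build GRCm38.p6, 250 bases before to 50 after the start) were found for 30 of the 40 genes, of which 21 had 1 start. Shown are the most abundant genes with 1 start and an adjusted p under 0.1, a pair that was higher in KO (Scn1a and Scn4b) and a pair that was lower (Cacna1e and Cacna2d1). Capitals mark the GC box GGGCGG and the CCAAT box CCAAT, each on either strand.
Scn1a, chr2:66440788-66441087, minus strand: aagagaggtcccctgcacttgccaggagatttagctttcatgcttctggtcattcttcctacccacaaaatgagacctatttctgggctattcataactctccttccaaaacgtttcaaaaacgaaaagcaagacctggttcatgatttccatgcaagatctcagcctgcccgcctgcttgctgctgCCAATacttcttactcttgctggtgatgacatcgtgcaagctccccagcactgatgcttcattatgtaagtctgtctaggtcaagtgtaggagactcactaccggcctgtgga
Scn4b, chr9:45138374-45138673, plus strand: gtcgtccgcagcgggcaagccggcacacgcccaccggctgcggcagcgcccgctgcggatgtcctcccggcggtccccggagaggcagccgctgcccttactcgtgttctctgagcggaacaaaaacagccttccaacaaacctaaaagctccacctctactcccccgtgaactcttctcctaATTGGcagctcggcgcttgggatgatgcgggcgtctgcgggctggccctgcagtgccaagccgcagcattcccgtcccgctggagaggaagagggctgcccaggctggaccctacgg
Cacna1e, chr1:154725871-154726170, minus strand: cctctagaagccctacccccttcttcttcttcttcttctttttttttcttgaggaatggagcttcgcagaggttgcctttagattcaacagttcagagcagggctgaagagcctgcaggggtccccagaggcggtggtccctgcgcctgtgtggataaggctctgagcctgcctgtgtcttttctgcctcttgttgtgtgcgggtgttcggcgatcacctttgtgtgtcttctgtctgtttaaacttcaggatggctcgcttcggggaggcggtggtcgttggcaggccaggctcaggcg
Cacna2d1, chr5:15934441-15934740, plus strand: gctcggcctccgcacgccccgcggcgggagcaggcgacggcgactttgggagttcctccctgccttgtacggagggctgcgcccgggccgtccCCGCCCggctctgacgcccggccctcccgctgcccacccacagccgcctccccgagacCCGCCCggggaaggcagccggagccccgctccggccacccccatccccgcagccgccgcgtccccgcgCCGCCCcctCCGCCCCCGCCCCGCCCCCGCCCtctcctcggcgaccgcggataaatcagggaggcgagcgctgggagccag
Scn1a and Scn4b each held 1 CCAAT box and no GC box, with a GC content of 47.33% and 66.33%. Cacna1e held neither motif, with 55.33% GC, and Cacna2d1 held 7 GC boxes, with 80.0% GC. The GC box was in 8 and the CCAAT box in 5 of the 21 members with 1 start, beside 35.7% and 37.4% of all 32851 promoters of the same length. TATAAA was in 0 of the 21, beside 13.6% of all promoters, and the E-box CAGATG was in 3, beside 17.2%. A match is a match of letters only.

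Genes that work with these channels were counted from lists of known partners. Over all genes tested at 1 month, 9.77% were lower and 8.59% higher at an adjusted p under 0.1, and 31.8% passed an unadjusted p under 0.05. Of 17 presynaptic partners of calcium channels, 8 were lower and 2 higher in KO at an adjusted p under 0.1 (limma), with a median log2 fold change of -0.42. Erc1, an active zone scaffold, had -1.41 ± 0.26 and Rims3 had -0.72 ± 0.13 (SE, limma adjusted p = 0.0596 each). Rimbp2, which tethers calcium channels at the active zone, had 0.94 ± 0.20 (SE, limma adjusted p = 0.0639), and the calcium sensor Syt2 had 0.50 ± 0.11 (SE, adjusted p = 0.0670). Of 18 partners of sodium channels at the axon initial segment and node, 3 were lower and 0 higher (4 and 1 at an unadjusted p under 0.05), with a median of -0.08. They were the ubiquitin ligase Nedd4l (-0.92), the spectrin Spnb4 (-0.44) and the channel modulator Fgf14 (-0.73), with limma adjusted p of 0.0757, 0.0801 and 0.0818.

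A list of 10 genes held AMPA receptor subunits, on which the TARPs act, and other auxiliary proteins of the receptor. Of these 10, 3 were lower and 0 higher at an adjusted p under 0.1, beside 9.77% and 8.59% of all genes. At an unadjusted p under 0.05 it was 4 and 0, beside 31.8% of all genes in either direction. The median over the list was -0.09. The 3 lower genes were the receptor subunits Gria4 (-0.68), Gria2 (-0.72) and Gria1 (-0.67), with limma adjusted p of 0.0697, 0.0851 and 0.0912. Of 19 genes of calcium release, buffering and extrusion, 12 were lower and 1 higher, with a median of -0.88. The sodium-calcium exchanger Slc8a2 had -1.93 ± 0.36 and the calcium pump Atp2b2 had -0.92 ± 0.16 (SE, limma adjusted p = 0.0596 each). The calcium buffer Calb2 had -1.08 ± 0.15 and Pcp4 had -1.21 ± 0.23 (SE, limma adjusted p = 0.0596 each). Calb1, Calb2, Pcp4, Itpr1 and Pvalb of this list are also among the granule neuron, Purkinje cell or inhibitory neuron markers. Of 8 potassium channel genes, 0 passed at an adjusted p under 0.1 in limma with all 6 libraries, and at an unadjusted p under 0.05 there were 2 higher and 2 lower. Without KO replicate 3, 4 of the 8 passed an adjusted p of 0.05, beside 34.8% of all genes: Kcnn1 (0.60) and Kcnn3 (0.56) rose and Kcnc1 (-0.94) and Kcnma1 (-0.77) fell (limma adjusted p of 0.0197, 0.0187, 0.00524 and 0.00405).

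With age, 3 of 31 channel genes tested were higher at 4 months than at 1 month and 0 were lower, in a limma fit over all 8 libraries with genotype as a term (adjusted p under 0.05). Over all genes, 3.24% passed, 1.13% higher and 2.11% lower. At an unadjusted p under 0.05, 6 channel genes were higher and 4 lower at 4 months, together 10 of 31, beside 24.7% of all genes. Cacnb1 had 41.7 FPKM in the 4-month KO library, against 13.0 ± 0.946 FPKM in 1-month KO libraries, and 15.3 FPKM in the 4-month WT library, against 7.90 ± 0.822 FPKM in 1-month WT libraries (SD, n = 3). The 4-month WT library lay above the WT libraries of 1 month. The difference in KO rests on the library with forebrain markers. The log2 fold change with age was 1.24 ± 0.18 (SE, limma adjusted p = 0.0353), and 0.87 without the 4-month KO library (adjusted p = 0.0254).

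Cacng8 had 37.9 FPKM in the 4-month KO library, against 15.2 ± 0.360 FPKM in 1-month KO libraries, and 16.0 FPKM in the 4-month WT library, against 10.5 ± 0.442 FPKM in 1-month WT libraries (SD, n = 3). The log2 fold change with age was 0.91 ± 0.16 (SE, limma adjusted p = 0.0377), and 0.56 without the 4-month KO library (adjusted p = 0.0353). Cacna1i had 19.2 FPKM in the 4-month KO library, against 11.1 ± 2.83 FPKM in 1-month KO libraries, and 27.2 FPKM in the 4-month WT library, against 13.9 ± 1.26 FPKM in 1-month WT libraries (SD, n = 3). Its log2 fold change with age was 0.85 ± 0.18 (SE, limma adjusted p = 0.0481), and 0.92 without the 4-month KO library (adjusted p = 0.0554).

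Without the 4-month KO library, 6 of 31 genes passed 0.05 with age, beside 12.8% of all genes. Besides Cacnb1 and Cacng8 they were Cacng4 (1.57, limma adjusted p = 0.0192) and Scn4b (1.18, adjusted p = 0.0364), which rose, and Cacnb2 (-0.75, adjusted p = 0.0287) and Cacng3 (-0.81, adjusted p = 0.0456), which fell. Scn4b had 71.9 FPKM in the 4-month WT library, against 33.6, 31.9 and 28.5 FPKM in 1-month WT libraries. Without the 4-month KO library, age cannot be told apart from the 1 WT library of 4 months. Brainstem markers summed to 81.0 FPKM in that library, against 16.4, 17.6 and 58.2 FPKM in 1-month WT libraries. Granule neuron markers summed to 1061 FPKM there, against 1692, 1648 and 1620.3 FPKM. The part of cell makeup was not tested. Leaving out any 1 of KO replicates 1 and 2 or WT replicates 1, 2 and 3 of 1 month left 0 of the genes past an adjusted p of 0.05 with age, and leaving out KO replicate 3 left 3.

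At 4 months there was 1 library per genotype, so no difference has a test. The library labelled KO had forebrain markers, and its granule neuron and Purkinje cell marker sums were below those of the WT library. Of 30 genes that averaged 1 FPKM or more in the pair, 16 differed by more than 1 on the log2 scale, against 20.7% of all genes. In 9 the library labelled KO was higher, against 9.57% of all genes, and in 7 it was lower, against 11.2%. Accessory genes made up 12 of these 16, out of 17 in the pair, and alpha genes 4, out of 13. Cacng3, a TARP of forebrain neurons, had 34.8 FPKM in the library labelled KO, against 1.503 FPKM in the WT library. Cacna1g had 13.6 FPKM in the library labelled KO, against 85.1 FPKM in the WT library. The alpha-2-delta gene Cacna2d2 had 6.51 FPKM in the library labelled KO, against 32.0 FPKM in the WT library. In WT libraries at 1 month these genes averaged 54.9 and 28.5 FPKM. Scn3b had 28.1 FPKM in the library labelled KO, against 5.17 FPKM in the WT library. Cacna2d3 had 44.6 FPKM in the library labelled KO, against 11.8 FPKM in the WT library. Of the gamma genes, Cacng7 had 22.6 FPKM in the library labelled KO, against 77.1 FPKM in the WT library.

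Some of the genes kept the direction of 1 month and others did not. Cacna1a had 64.0 FPKM in the 4-month library labelled KO, against 217 FPKM in the WT library, and Scn3a had 16.0 FPKM in the library labelled KO, against 4.14 FPKM in the WT library. Cacna1e had 68.7 FPKM in the library labelled KO, against 26.4 FPKM in the WT library, and Cacna2d1 had 69.9 FPKM in the library labelled KO, against 25.7 FPKM in the WT library. Both were lower in KO at 1 month. The forebrain marker sum was 737 FPKM in the library labelled KO, against 20.2 FPKM in the 4-month WT library, and its part in these differences was not tested.

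**Figure D5:**
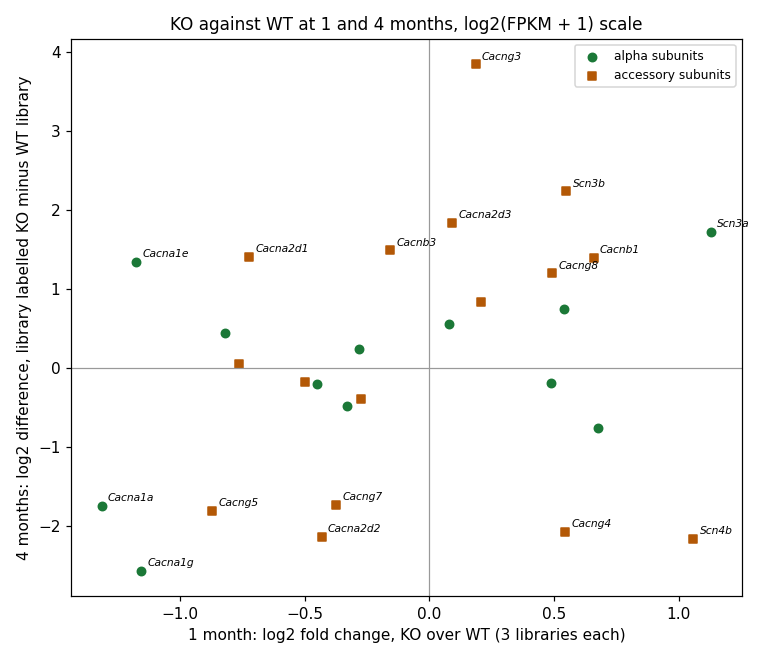
Log2 fold change of KO over WT at 1 month (horizontal axis, 3 libraries each) and log2 difference between the library labelled KO and the WT library at 4 months (vertical axis, 1 library each), both on the log2(FPKM + 1) scale, for alpha genes (circles) and accessory genes (squares). Named genes are past 1 at 4 months or past 0.9 at 1 month. Cacna1a and Cacna1g lie at the lower left, Scn3a at the upper right, and Scn4b (1.06 at 1 month, -2.16 at 4 months) at the lower right.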

How the data were processed

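RNA was measured in 8 libraries of total RNA labelled as cerebellum. Per the submitters' processing notes, reads were processed with Bowtie 1.1.2, TopHat2 2.1.0 and Cuffdiff, with mm9 as genome build. FPKM values were deposited by the authors as a single table of 8 columns. Annotation, strandedness and filters were not given in the sources used here. The table had 1 repeated header line, which was removed, and 0 unmapped columns. FPKM are not counts and the read depth is unknown. Totals ran from 381845 to 630615 FPKM, with 11.0% to 48.2% in small RNA symbols, and 19570 to 20433 symbols were above 0. Tests used limma 3.58.1 in R 4.3.3 on log2(FPKM + 1), with an empirical Bayes trend, in genes that averaged 1 FPKM or more over the libraries of the fit, adjusted by Benjamini-Hochberg over all of them. Fold changes on this scale understate the change of low genes. The script was tested on simulated data. Genotype was fitted in the 6 libraries of 1 month, and age in all 8 with genotype as an additive term. The members and lists were chosen with earlier results of these data known. Values in every library are given for members past 0.05 in either fit, for those past 0.05 with a log2 fold change of at least 1 without KO replicate 3, for the highest pair of each class by mean FPKM, and for the largest rise and fall of each class. Of each partner list at most 4 genes are named, by smallest p. Alternatives were other pseudocounts (0.1 and 0.5), filters (none, and 5 FPKM), scalings, weights, a replicate block and leaving out libraries. Some genes of these families are not reported here.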

Additional observations from a re-analysis of the deposited data

Results flagged for a closer look

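In 7 of the 16 channel genes whose KO and WT libraries did not overlap at 1 month, the difference between the library labelled KO and the WT library at 4 months had the opposite sign (43.8%, beside 42.1% of the 5119 genes with such a separation over the whole table). The difference between the ages was not tested, and the 4-month KO library is the one with forebrain markers. Of the genes higher in KO at 1 month, Scn1a had a log2 difference of -0.18 at 4 months, Scn4b had -2.16 and Cacng4 had -2.07. Of the genes lower in KO at 1 month, Cacna1b had 0.24, Cacna1e had 1.35, Cacna2d1 had 1.41 and Cacnb4 had 0.0499. Scn1a, Cacna1b and Cacnb4 thus differed little between the 4-month libraries, while the other 4 differed by more than 1 on the log2 scale.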

How the results depend on the processing

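At 1 month, 0 genes passed 0.05 with all libraries, but 25 with limma array weights (55.2% of all genes), and, as choices made after seeing the data, 25 without KO and WT replicates 3 (49.4% of all genes) and 20 with a median shift without KO replicate 3 (34.6% of all genes). Leaving out 1 library gave 0 to 17 (0.00672% to 34.8% of all genes). The 17 came without KO replicate 3, a library singled out after the data were seen. At 0.1, the 13 genes became 5 without a filter, 26 with array weights, 7 with all 8 libraries and age, 26 without KO and WT replicates 3 and 25 with the median shift without KO replicate 3, and 0 to 22 when 1 library was left out. Of the 9 genes left at 0.1 without WT replicate 3, 7 were higher and 2 lower in KO. With age, the 3 genes became 1 without a filter, 5 in WT only, 12 in KO only, 12 without the 4-month WT library and 6 without the 4-month KO library, and 0 to 3 when 1 library of 1 month was left out. The age sign turned for 13 of 30 channel genes in WT only and without the 4-month KO library, and for 5 of 31 in KO only and without the 4-month WT library. Past 0.05 under the alternative were Scn4b in WT only and without the 4-month KO library (1.18 each), Cacna2d3 in KO only (0.86), Cacng3 without the 4-month KO library (-0.81), and Cacng4 in KO only and without the 4-month WT library (-1.05 each). The alpha median of -0.28 became -0.0189 without a filter, 0.0226 with all 8 libraries and -0.0609 without KO and WT replicates 3, and -0.30 to -0.07 when 1 library was left out. The accessory median of 0.01 became -0.00954 without a filter, -0.12 with a filter at 5 FPKM, 0.0799 with a median shift, -0.0243 rescaled without small RNAs, 0.0369 with quantile normalization, 0.0369 with array weights, -0.11 with all 8 libraries, 0.0300 without KO and WT replicates 3, 0.11 with the median shift without KO replicate 3, and 0.0921 with Scn2a1 and CacnB2 added, and -0.0636 to 0.0830 when 1 library was left out. The 16 genes past 1 at 4 months stayed between 16 and 18. With a replicate block, 0 channel genes passed 0.05 and 12 passed 0.1 at 1 month (0.0269% and 20.7% of all genes). Same-numbered KO and WT libraries had correlations of 0.17, 0.03 and 0.04, and the other pairs -0.14 to 0.08. Such correlations cannot tell whether same-numbered libraries were prepared together. Small RNA symbols held 24.2%, 43.4% and 36.4% of FPKM in KO replicates 1, 2 and 3, against 31.7%, 44.5% and 36.2% in WT. A shared preparation was not tested. No paired analysis was possible for age because 4 months had 1 library per genotype. FPKM give no read depth, so counting error is unknown.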
